A study of Mus musculus with 3 samples.

Results

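The cells described here are fibroblasts of the mouse mitral valve that were picked by their own transcripts. A gene was counted as detected in a cell when its deposited value was above 0. A cell was taken when at least 2 of the 3 fibroblast genes Prrx1, Col3a1 and Dpt were detected, when neither the endothelial gene Egfl7 nor the leukocyte gene Ptprc was detected, and when more genes were detected from list A (Prg4, Fmod, Pamr1, Astn1 and Erbb4) than from list B (Scn7a, Rgs7, Fgf7, Sfrp2 and Thsd7b). This rule gave 2422 of 16383 cells, or 14.8% (95% exact binomial interval 14.2 to 15.3). They are called list A fibroblasts. The reverse rule gave 303 list B fibroblasts, and 350 fibroblasts had as many genes of one list as of the other.

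The data came from droplet-based 3' RNA sequencing (10x Genomics, v3) of mitral valves, which the labels describe as single-cell. The labels name 3 samples, all from B6.129-Fbn1tm2Rmz/J mice and all with mgR/mgR in their library names. The mgR allele of Fbn1, the gene of the microfibril protein fibrillin-1, carries an inserted cassette and lowers the amount of fibrillin-1. Mice used for such libraries were 12 weeks old. The deposited matrix is one table whose barcodes name no mouse. The labels call its contents single cells of mgR mice, but the study also made libraries from nuclei and from mice without the allele or treated with rapamycin, and the matrix itself does not show which of these its barcodes come from. Every level below therefore belongs to the pooled barcodes, called cells here. The matrix was treated as 1 sample: there is no replicate spread, no control group without the allele and no test, and every interval given here covers counting error only.

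Mitral leaflets consist of an endothelial sheet over a core of valve interstitial cells. These fibroblast-like cells make and turn over the layered matrix of fibrillar collagen, proteoglycan and elastic microfibrils that lets a leaflet bend and bear load. In myxomatous valves this matrix is disordered and rich in proteoglycan. Prg4 (lubricin) is a lubricating proteoglycan known from joints and other moving surfaces, Fmod (fibromodulin) is a small leucine-rich proteoglycan that binds collagen fibrils, Erbb4 is a neuregulin receptor tyrosine kinase, Pamr1 is a secreted peptidase-domain protein and Astn1 (astrotactin) is a membrane protein known from neurons.

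The matrix held complete values of 3264 genes. Of those with a matched position, 1224 were on chromosome 1, 1465 on chromosome 2 and 555 on chromosome 3. The matrix as read here held no gene matched to another chromosome, so genes of other chromosomes were not analysed. List A fibroblasts had a median of 5975 UMIs, or unique molecules, per cell (722 to 19795), list B fibroblasts 6454 and all other cells 5232. The barcodes formed 2 runs, of 14222 and 2161 cells, each of which starts the barcode order anew. Whether a run is a library or several is not given in the sources used here. List A fibroblasts were 15.7% of the first run and 9.02% of the second, and 11 barcodes stood in both runs, 6 of their cells being list A fibroblasts. Levels below are UMIs of a gene per 10000 UMIs of the group, summed over its cells. Shares of cells with a UMI come from cells of at least 2000 UMIs, sampled down to that number, so that 70 list A and 7 list B fibroblasts do not enter them.

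The name by which this population is known, after Prg4 and Fmod, fitted one of the 2 genes better than the other. Erbb4 was detected in 97.7% of thinned list A fibroblasts and Prg4 in 60.1%, against 16.2% for Pamr1, 11.4% for Astn1 and 4.97% for Fmod. Erbb4 was common in the other fibroblasts too, with 53.0% of list B fibroblasts and 85.4% of those with equal counts. Erbb4 (chr1:68032186-69108059, minus strand, GRCm38) had a level of 73.4 (73.0 to 73.8). Prg4 (chr1:150449412-150466165, minus strand) had 16.9 (16.7 to 17.1) and Pamr1 (chr2:102550012-102643041, plus strand) 1.38. Astn1 (chr1:158362273-158691781, plus strand) stood at 0.800 and Fmod (chr1:134037254-134048277, plus strand) at 0.317. In cells with Egfl7 and no fibroblast gene, 7175 cells with a median of 5288 UMIs, the thinned shares were 7.56% for Erbb4, 2.55% for Prg4 and 0.150% for Fmod. These genes chose the cells, so their distance from that background was fixed by the rule. Nothing in the matrix places a cell in the leaflet rather than in the annulus or the chordae.

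The 3 fibroblast genes set the population apart only from other cell types. Prrx1, a mesenchymal homeobox factor, stood at 3.57 in list A and 3.38 in list B fibroblasts, and Dpt (dermatopontin) at 2.91 and 3.06. Col3a1, a chain of fibrillar type III collagen, stood at 5.11 and 8.05. Of the 3570 cells with at least 2 of these genes, 421 were set aside for Egfl7 and 74 for Ptprc. List A fibroblasts made up 78.8% of the remaining 3075. In list A fibroblasts, 972 cells had all 3 fibroblast genes and 2006 had no list B gene at all. All of these values were used by the rule and describe the choice.

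Members differed in how many list A genes they had. A single gene was detected in 415 cells, 2 in 1031, 3 in 718, 4 in 233 and all 5 in 25. Their median depth moved with that number, from 4834 UMIs with 1 gene to 8311 with 5. The commonest combination was Prg4 with Erbb4 (837 cells), then Erbb4 alone (403 cells) and Prg4, Pamr1 and Erbb4 together (354 cells). Erbb4 alone therefore admitted 16.6% of the members.

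The cells were chosen by how many list A genes they had, so how often these genes met within them depends on the rule and is given as a description. After thinning, Fmod was detected in 11.8% of cells with Pamr1 (8.77 to 15.5) and in 3.65% of those without (2.87 to 4.58). Pamr1 was detected in 19.7% of cells with Prg4 and in 10.8% of those without. Astn1 was detected in 11.4% of cells with Prg4 and 11.5% of those without, and in 10.0% of cells with Pamr1 and 11.7% of those without. Cells with Astn1 had an Erbb4 level of 100.4, against 65.1 in cells without it, at median depths of 6441 and 5875 UMIs. Counts as sparse as these show co-detection and no more.

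Against list B fibroblasts, the list A fibroblasts were higher in Kcnq5 (12.3 times), Thbs1 (14.3 times), Postn (5.89 times) and Rin2 (3.06 times), which encode a potassium channel subunit, a pair of matricellular proteins and a regulator of endocytosis. They were lower in Ifi203 (18.9 times), Fmo2 (11.4 times), Aox3 (7.18 times) and Cp (4.97 times), which encode an interferon-inducible DNA sensor, a pair of oxidizing enzymes and a ferroxidase. Of 1327 genes outside the rule with a level of at least 0.2 in one group, 61 (4.6%) were higher by at least 2 times and 71 (5.35%) were lower by at least 2 times. Higher and lower are used in this sense for genes counted as such, as descriptions of 2 groups of cells and not as results of a test. The whole interval of the ratio lay beyond 2 times for 44 of the higher and 56 of the lower genes, and the median ratio over the 1327 genes was 1.02. The lists were drawn up with earlier results of these same cells known, so genes that go with them were bound to differ. In the second barcode run alone, which holds 38 list B fibroblasts, the counts were 135 and 118. Sparse genes rest on a few list B UMIs there. These counts carry no share of the genes tested in that run and are not comparable with 61 and 71.

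**Figure D1:**
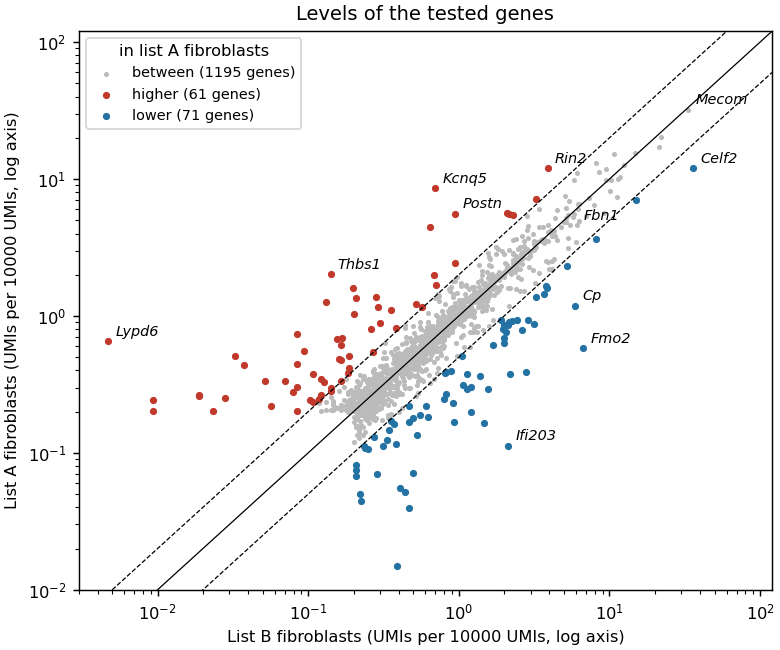
Levels of the 1327 genes in list B fibroblasts (x axis) and list A fibroblasts (y axis), both in UMIs per 10000 UMIs on log axes. Each point is a gene, the solid line marks equal levels and the dashed lines mark a ratio of 2 either way: 61 genes lie above the upper dashed line, 71 below the lower one, and most others near the solid line.

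Kcnq5, a voltage-gated potassium channel subunit, was among the most abundant of the higher genes (chr1:21398403-21961942, minus strand). It stood at 8.60 (8.46 to 8.74) in list A and 0.699 (0.592 to 0.821) in list B fibroblasts, a ratio of 12.3 (10.5 to 14.5). It was detected in 40.6% of thinned list A fibroblasts, against 7.77% of list B fibroblasts and 4.64% of Egfl7 cells. The ratio was 13.0 in the first barcode run and 11.6 in the second, so both runs showed it at about the same size.

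Thbs1 (chr2:118111876-118127133, plus strand) encodes thrombospondin-1, a matricellular protein that can activate latent TGF-beta. Its level was 2.02 (1.95 to 2.09) in list A and 0.141 (0.0950 to 0.201) in list B fibroblasts, and the ratio was 16.4 in the first barcode run and 6.04 (2.87 to 15.2) in the second, on 7 list B UMIs. Postn (chr3:54361109-54391037, plus strand) encodes periostin, a matricellular protein of valves and other load-bearing tissue, and stood at 5.59 (5.47 to 5.71) against 0.948 (0.822 to 1.09). Itga10, a collagen-binding integrin alpha chain known from cartilage, stood at 1.04 against 0.202. Crispld1, a secreted cysteine-rich protein, stood at 1.59 against 0.197. Postn separated the 2 kinds of fibroblast but not fibroblasts from endothelium, since Egfl7 cells had a level of 4.08. The Postn ratio was 4.89 (4.23 to 5.67) in the first barcode run and 28.8 (16.1 to 57.9) in the second, where list B fibroblasts had 11 Postn UMIs.

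Rin2, which acts on the endocytic GTPase Rab5, stood at 11.9 (11.8 to 12.1) against 3.90 (3.63 to 4.17). Rapgef4 (Epac2), a cAMP-activated exchange factor for Rap, stood at 4.50 against 0.648. Pak7, a p21-activated kinase, stood at 0.744 against 0.0845, and Enah, an actin-regulatory Ena/VASP protein, at 1.37 against 0.282. The Rin2 ratio was 3.02 in each barcode run, while that of Rapgef4 was 6.16 in the first and 29.2 (11.3 to 108) in the second, on 4 list B UMIs.

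Of the remaining genes ranked highest against list B fibroblasts, Ccdc3 was the most abundant. Lypd6, a membrane-anchored Ly6-family protein, stood at 0.651 in list A fibroblasts and had 1 UMI in all list B fibroblasts, which gives a ratio of 139 with a counting interval of 24.8 to 5483. Ccdc3, a secreted coiled-coil protein, stood at 1.35 against 0.207. Pdgfc, a platelet-derived growth factor, stood at 0.551 against 0.0939, and its highest level was in Ptprc cells (1.34). Cubn, an endocytic receptor, stood at 0.680 against 0.155. Mpped2, a metallophosphoesterase, stood at 1.16 against 0.291. Etl4 stood at 0.611 against 0.164 but at 2.84 in Egfl7 cells, so that it was higher than in list B fibroblasts and lower than in all other cells.

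**Figure D2:**
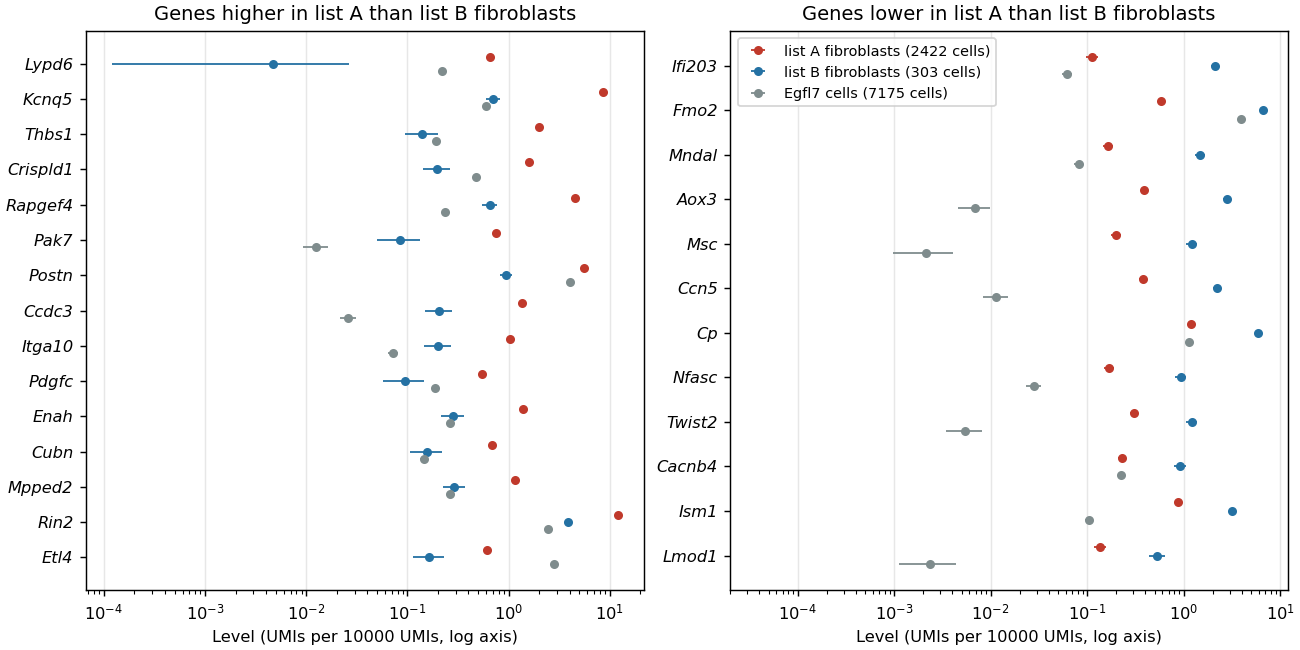
Levels of the 15 named higher and 12 named lower genes in list A fibroblasts (red), list B fibroblasts (blue) and Egfl7 cells (grey), in UMIs per 10000 UMIs on a log axis, with 95% exact Poisson intervals. Red lies right of blue in the left panel and left of it in the right panel, Lypd6 rests on 1 UMI in list B fibroblasts, and Egfl7 cells exceed list A fibroblasts for Etl4 on the left and for Fmo2 on the right.

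Among the genes lower in list A fibroblasts, 5 belong to the HIN-200 family of interferon-inducible DNA sensors on chromosome 1. The matrix holds 12 genes named Ifi or Mndal there, and the other 7 did not reach the level needed. The family was singled out after its values were seen. Ifi203 (chr1:173920407-173942672, minus strand) stood at 0.113 (0.0970 to 0.131) in list A and 2.13 (1.94 to 2.34) in list B fibroblasts. Mndal stood at 0.165 against 1.47. Ifi205, Ifi207 and Ifi211, which lie within the same stretch of chromosome 1, were also lower, by 25.9, 11.9 and 8.58 times. Ifi204, at 0.174 in list B fibroblasts, was 4.47 times lower, and the remaining 6 stood at no more than 0.0469 in list B fibroblasts. Genes of this family resemble each other closely and the annotated span of Mndal (chr1:173849126-173942491) takes in Ifi211 and overlaps Ifi203, so reads may have been shared among them and the values of single members are uncertain. The family was not fibroblast-specific: Ptprc cells had 4.39 of Ifi203 and 4.43 of Mndal.

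The promoters of these neighbours are shown because these 5 genes were lower together. The motif GAAANNGAAA, a spaced pair of GAAA repeats of the kind known from interferon-responsive elements, was searched on both strands in the 250 bases before each RefSeq gene start (GRCm38.p6). It occurred in 978 of 32851 promoters (2.98%), in 40 of the 1125 tested genes with a promoter in the table (3.56%), in 1 of the 51 such genes higher in list A fibroblasts and in 5 of the 50 such genes lower. Those 5 were Ifi203, Ifi205, Ifi207, Ifi211 and Mndal. Stretches of 100 bases that hold the motif and no annotated exon are printed in the direction of transcription, from the minus strand of chromosome 1, with the motif in capitals. They lie at chr1:173942493-173942592 (Ifi203, in one of its RefSeq promoters), chr1:174031835-174031934 (Ifi205), chr1:173741810-173741909 (Ifi207) and chr1:173913047-173913146 (Ifi211).
Ifi203: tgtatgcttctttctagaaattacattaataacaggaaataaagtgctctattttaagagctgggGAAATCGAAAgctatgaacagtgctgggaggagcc
Ifi205: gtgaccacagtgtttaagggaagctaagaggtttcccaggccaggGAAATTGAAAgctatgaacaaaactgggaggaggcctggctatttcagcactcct
Ifi207: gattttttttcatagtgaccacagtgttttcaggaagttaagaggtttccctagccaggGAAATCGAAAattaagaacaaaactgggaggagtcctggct
Ifi211: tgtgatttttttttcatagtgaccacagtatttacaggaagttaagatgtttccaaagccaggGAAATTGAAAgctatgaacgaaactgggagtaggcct
The 4 stretches share bases around the motif as well, so they are copies of related sequence and not separate occurrences, and a match is a description of the letters and not of a bound site.

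Fmo2, a flavin-containing monooxygenase (chr1:162874317-162898726, minus strand), stood at 0.584 (0.547 to 0.623) against 6.68 (6.34 to 7.03), and Egfl7 cells had 3.96. Aox3, an aldehyde oxidase, stood at 0.389 against 2.79. Cp (ceruloplasmin), a copper-dependent ferroxidase, stood at 1.19 (1.13 to 1.24) against 5.90 (5.58 to 6.24). Serping1, the C1 inhibitor of complement, stood at 0.784 against 2.63. Fmo2 and Cp were lower in list A fibroblasts in both barcode runs, by 12.1 and 5.26 times in the first and by 7.25 and 3.68 times in the second.

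Msc (musculin) and Twist2, both basic helix-loop-helix repressors, stood at 0.199 against 1.21 and at 0.305 against 1.21. Zeb2, a zinc-finger repressor known for its part in epithelial-mesenchymal transition, stood at 7.05 against 15.1, and Celf2, an RNA-binding splicing regulator, at 12 against 35.8. Ccn5, a matricellular protein of the CCN family, stood at 0.377 against 2.20. Ism1 (isthmin), a secreted protein, stood at 0.873 against 3.16 and Lmod1 (leiomodin) at 0.136 against 0.530. Nfasc, an adhesion molecule of the L1 family, stood at 0.169 against 0.929. Cacnb4, a calcium channel beta subunit, stood at 0.231 against 0.920, but was only 1.44 times lower in the second barcode run. Of the 15 higher and 12 lower genes ranked against list B fibroblasts, it alone did not keep a ratio of 2 in each run. The fibroblasts with equal counts from both lists lay between the groups for each gene named here, for example 0.935 for Msc and 27.3 for Celf2.

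**Figure D3:**
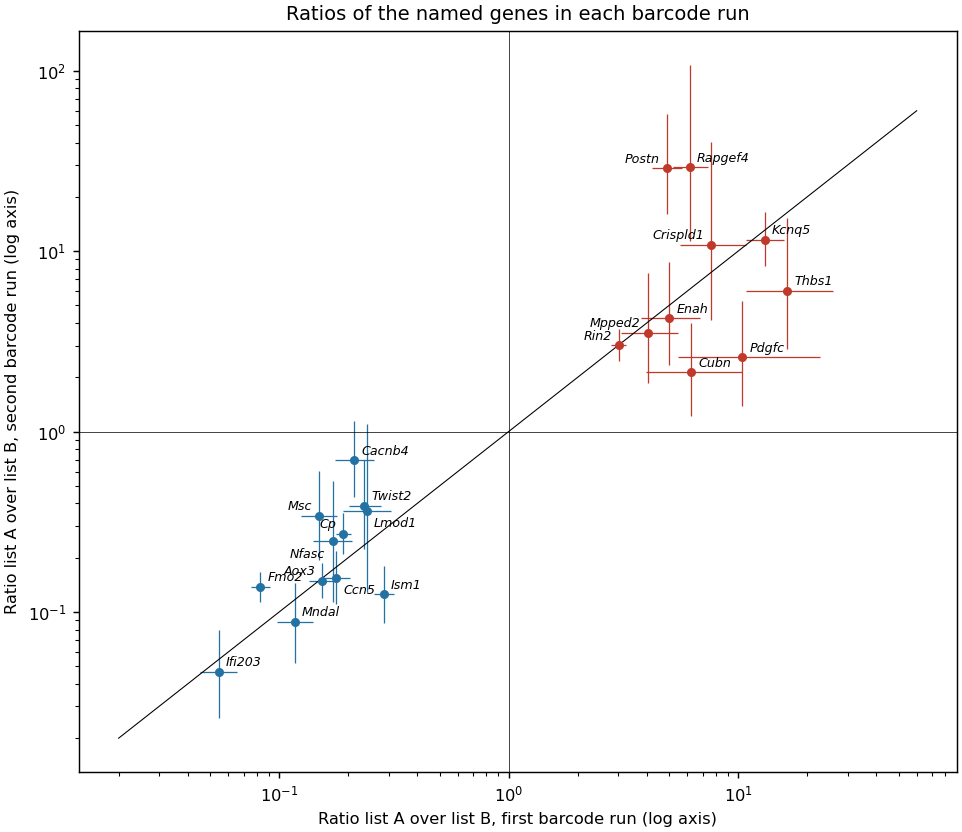
Ratio of the level in list A over list B fibroblasts in the first (x axis) and second (y axis) barcode run, on log axes with 95% exact intervals. Of the 15 higher and 12 lower genes ranked against list B fibroblasts, the 22 with more than 3 UMIs in every group and run are drawn. Red genes are higher and blue genes lower in list A fibroblasts, the diagonal marks equal ratios, and all 22 genes lie on the same side of 1 in both runs, with Postn and Rapgef4 farthest above the diagonal.

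The gene lists that follow hold few genes each, so their counts are given beside the 4.6% of all tested genes that were higher and the 5.35% that were lower, and no list was tested. Of 24 listed collagens 10 were in the matrix and 6 outside the rule passed the level filter, of which 1 was higher and 1 lower than in list B fibroblasts (median ratio 1.23, against 1.02 over all tested genes). Col5a2, a chain of the fibril-nucleating type V collagen, stood at 11.0 (10.8 to 11.1) against 6.05 (5.72 to 6.39), a ratio of 1.81. Col9a1, a cartilage collagen chain, stood at 0.203 against 0.0235, with 5 list B UMIs in the first barcode run and 0 in the second. Col4a4, a basement membrane chain, stood at 0.801 against 1.97. Col5a1 (3.96 against 3.10) and Col6a3 (5.16 against 4.36) lay between the limits. Against all other cells 4 of the 6 were higher, Col5a1 by 4.62 times and Col6a3 by 5.11 times.

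Microfibril and matrix glycoproteins went both ways. Of 63 listed genes 24 were in the matrix and 18 outside the rule passed the filter, with 2 higher (Thbs1 and Postn) and 4 lower (median ratio 0.809). The lower ones were Ccn5, Lamc3 (a laminin gamma chain, 0.0558 against 0.408), Pi15 (a secreted CAP-family protein, 0.942 against 2.43) and Adamtsl2, which binds fibrillin-1 (0.937 against 1.91). Adamtsl2 was uneven within list A fibroblasts: it stood at 1.94 in a cluster of 645 of them, described below, and at 0.499 in the others. Fbn1 itself (chr2:125300594-125507993, minus strand), the gene altered in these mice, stood at 4.61 (4.50 to 4.71) in list A, 6.07 (5.74 to 6.41) in list B and 2.45 in all other cells, a ratio of 0.759 (0.716 to 0.806) against list B fibroblasts. A 3' tag count does not separate transcripts of the altered allele from normal ones. In list A fibroblasts Fbn1 stood at 4.87 in the first barcode run and 2.04 in the second.

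Proteoglycan and cartilage genes outside the rule were few. Of 24 listed proteoglycans 7 were in the matrix, and Prelp, a small leucine-rich proteoglycan, was the only one outside the rule to pass the filter (1.65 against 1.03, a ratio of 1.60). In the list of cartilage, bone and tendon genes, which shares Prelp and Col9a1 with the lists above, 12 of 41 were in the matrix and 7 outside the rule passed. Col9a1 and Frzb, a secreted Wnt antagonist known from cartilage (1.23 against 0.521), were higher, none was lower, and the median ratio was 0.858. The Frzb ratio was 2.52 (2.04 to 3.15) in the first barcode run and 1.40 (0.876 to 2.34) in the second. Bcan and Matn4, at 0.147 and 0.104 in list A fibroblasts, were under the level needed.

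Of 42 listed proteases and inhibitors 18 were in the matrix and 9 outside the rule passed, with 1 higher and 3 lower (median ratio 0.600). Pappa2, a protease that cleaves IGF-binding proteins, stood at 0.507 against 0.188. Its ratio was 3.48 (2.38 to 5.32) in the first barcode run and 0.853 (0.455 to 1.72) in the second, where it was not higher. Serping1, Adam33, a membrane metalloprotease (0.0445 against 0.225), and Serpine2, an inhibitor of thrombin and urokinase (0.219 against 0.465), were lower. Fap, the fibroblast activation protein, stood at 2.50 against 4.17 and did not reach 2 times.

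The study asked about integrin and mTOR signaling in this valve. Of 19 listed integrins 6 were in the matrix and 3 passed, with Itga10 higher, Itga8 at 2.15 against 4.14 (a ratio of 0.519) and Itgav, a partner in TGF-beta activating integrins, at 1.37 against 0.911 (a ratio of 1.5). None of the 9 genes of PI3K, AKT and mTOR signaling that passed, of 45 listed and 15 in the matrix, was higher or lower by 2 times (median ratio 0.995). Irs1, an insulin receptor adaptor, stood at 1.54 against 1.86, Pik3ca at 1.82 against 1.62 and the mTOR inhibitor Tsc1 at 0.764 against 0.718. Likewise none of the 5 TGF-beta and BMP genes that passed, of 44 listed and 14 in the matrix, reached 2 times (median ratio 0.941). Skil, a repressor of SMAD signaling, stood at 1.23 against 0.807, Acvr1 at 2.37 against 1.59 and Tgfb2 at 1.01 against 1.18. Levels of these transcripts do not report the activity of the pathways. The matrix as read here held genes matched to chromosomes 1 to 3 only, so most of the listed genes of these pathways were not seen.

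Smaller lists gave a gene or so each. Among Wnt genes 4 of 42 listed passed, with Frzb higher and Lrp4, a co-receptor of the LDL receptor family (0.910 against 2.15), lower (median ratio 1.29). Among Notch genes 4 of 17 passed, with the ligand Jag1 lower (0.383 against 0.807) and a median ratio of 1.11. Of 43 growth factors and receptors 2 passed outside the rule, Pdgfc, which was higher, and Fgf2 (2.31 in both), with a median ratio of 3.44. Nrp2, a semaphorin and VEGF co-receptor, was the 1 higher gene among the 10 guidance and adhesion genes that passed of 59 (0.218 against 0.0563, median ratio of the list 0.850). Of 66 mesenchymal transcription factors 12 passed, with Nr4a2 higher (0.241 against 0.103), and Twist2 and Zeb2 lower (median ratio 0.961). Ptgis, prostacyclin synthase, stood at 5.51 (5.40 to 5.63) against 2.17 (1.98 to 2.38) and was the 1 higher gene of the 3 prostaglandin and steroid enzymes that passed of 17, while Hsd11b1, which regenerates active glucocorticoid, was lower (0.147 against 0.343, median ratio of the list 0.972). Of 29 stress and immediate-early genes 6 passed, with Nr4a2 higher and Cebpb lower (0.0746 against 0.207) and a median ratio of 0.721. Hspa5, an endoplasmic reticulum chaperone of that list, stood at 1.19 against 2.15, just short of 2 times.

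Summed markers of other cell types stood in the members as follows. The 9 endothelial markers other than Egfl7 summed to 1.61 in list A and 1.49 in list B fibroblasts, against 8.11 in Egfl7 cells, and Cd34, which fibroblasts also express, made up 1.16 of it. The 9 macrophage markers other than Ptprc summed to 0.40 in list A and 0.479 in list B fibroblasts, against 37.2 in Ptprc cells. The 5 cardiomyocyte markers summed to 0.111 and 0.141 and the 9 cell cycle markers to 0.0652 and 0.0798. Of 2 melanocyte markers, Mlph was found in 315 list A fibroblasts (13.0%) and 13 list B fibroblasts (4.29%), and stood at 0.304 against 0.0845, with 0.0368 in Egfl7 cells. Of 3 mural markers, Rgs5 was found in 87 list A fibroblasts and in 0 of 303 list B fibroblasts, which allows a share of up to 0.990% of cells with a UMI. Of its 179 UMIs in list A fibroblasts, 75 were in 10 cells. Cdh19, a Schwann cell marker that is also on the guidance list, stood at 0.759 against 1.24, with 0.0144 in Egfl7 cells, and was 3.44 times higher than in all other cells. The part of these cells in the results was not tested beyond leaving out cells with Fcgr1 or Mlph, which gave 2106 list A fibroblasts, and leaving out the 2 small clusters described below. No doublet caller was run.

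Against all other cells, most of which were endothelial by Egfl7, 171 of 1420 tested genes (12%) were higher in list A fibroblasts and 190 (13.4%) lower, with a median ratio of 1.02. The named higher genes were led by Ccdc3 (8.16 times), Pak7 (6.93), Frzb (6.81) and Dnm1, a dynamin of membrane fission (6.18). Pappa2 (5.96), Slc7a11, the cystine transporter (5.60), Kcnq5 (5.54) and Kcnab1, a potassium channel beta subunit (5.53), followed. Fibin (5.50), Dnm3os, a noncoding transcript and host of microRNAs (5.48), Rapgef4 and Col6a3 (5.11 each) and Plxdc2 (5.03) came after these. Dnah7b, a dynein heavy chain (5.59), and Sec16b, of endoplasmic reticulum export sites (5.57), were also among the 15.

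The named lower genes of that comparison are known mostly from endothelium, blood cells and muscle. Ccm2l stood at 0.0370 in list A fibroblasts and 2.30 in Egfl7 cells, and the junction protein F11r at 0.0357 and 1.28. Cd93, an endothelial lectin, stood at 0.0997 and 2.60, Ptgs1 (cyclooxygenase-1) at 0.125 and 4.02, and Lmo2, a blood and endothelial cofactor, at 0.0552 and 1.87. Inpp5d (SHIP1), a leukocyte phosphatase, stood at 0.0401 in list A fibroblasts and 13.8 in Ptprc cells. Xirp2, a striated muscle protein, was 73.9 times lower. Ptprt, Ppp1r16b, Plekho1, Nuak2 and She made up the 12. Matrix genes were among the lower ones too: Fn1 (fibronectin) stood at 0.377 against 3.18 in all other cells, and Igfbp5 at 1.40 against 11.8.

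The lists are set here against the 12% of all tested genes that were higher and the 13.4% that were lower than in all other cells, with no test. Mesenchymal transcription factors had 6 higher and 1 lower of the 12 that passed (median ratio 1.81), and Mecom, a zinc-finger factor, stood at 32.1 (31.8 to 32.4) in list A fibroblasts, 33.4 in list B fibroblasts and 9.84 in all other cells. Matrix glycoproteins had 6 higher and 7 lower of 17 (median ratio 1.66), integrins 2 and 2 of 5 (0.857), and proteases and inhibitors 3 and 2 of 9 (0.874). PI3K, AKT and mTOR genes had 1 higher, Irs1 (4.21 times), and 3 lower of 11, among them Sgk3, a kinase related to AKT (0.964 against 5.08 in all other cells). TGF-beta and BMP genes had none higher and 2 lower of 7 (median ratio 0.588), and stress and immediate-early genes none higher and 5 lower of 8 (0.379). Guidance and adhesion genes had 4 higher and 3 lower of 12, and cartilage, bone and tendon genes 3 and 1 of 5.

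The 2 comparisons did not single out the same genes. Of the 61 genes higher than in list B fibroblasts, 37 were also higher than in all other cells, 8 were lower than in all other cells and 16 lay between. Of the 71 genes lower than in list B fibroblasts, 19 were higher than in all other cells, among them Celf2 (12 against 5.33 in all other cells), Pi15 and Lrp4, so that both kinds of fibroblast stood above other cells in them. A further 18 were lower and 12 lay between, and the rest did not reach the level needed there. The 61 higher genes had a median annotated span of 104 kb, against 47.9 kb for the 70 lower genes with a position and 42.7 kb for the 1187 genes between. Whether reads in introns were counted is not given in the sources used here.

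Within list A fibroblasts, many of these genes changed with the number of list A genes detected, which was itself part of the rule and went with depth. Rin2 stood at 4.46 in cells with 1 list A gene, 8.25 with 2, 15 with 3, 22.7 with 4 and 30.3 with 5. Kcnq5 stood at 2.96, 6.76, 11.3, 13.6 and 10.2, and Thbs1 at 0.844, 1.16, 2.81, 3.93 and 3.86. Other genes ran the other way: Fap stood at 3.92 with 1 list A gene, 1.16 with 4 and 0.224 (0.0728 to 0.524) with 5. Lypd6 stood at 1.02, 0.311 and 0.135 (0.0278 to 0.393) in the same order. The values with 5 list A genes rest on 5 Fap and 3 Lypd6 UMIs in 25 cells. Postn stayed between 4.87 and 6.77. Lypd6 was therefore higher than in list B fibroblasts yet lowest in the cells with most list A genes.

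**Figure D4:**
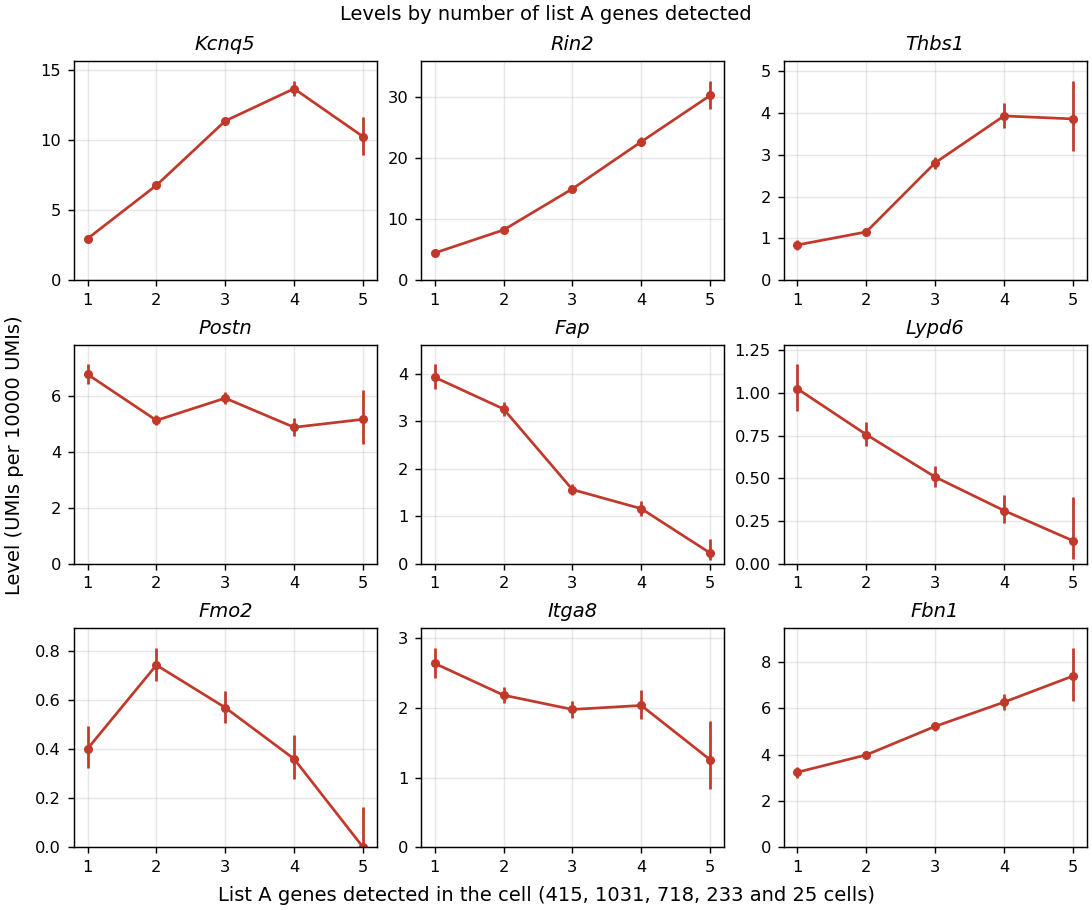
Levels of 9 genes in list A fibroblasts with 1 to 5 list A genes detected (415, 1031, 718, 233 and 25 cells), in UMIs per 10000 UMIs, with 95% exact Poisson intervals. Rin2, Kcnq5, Thbs1 and Fbn1 are higher in cells with 4 list A genes than in cells with 1, and Fap and Lypd6 are lower. Postn is lower too (4.87 against 6.77), but without a steady order from 1 to 5 genes.

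The values just inside and just outside the rule differed from gene to gene. Fibroblasts with equal counts (350 cells) had 1.12 of Kcnq5, those with 1 more list A gene (676 cells) 3.11, those with 2 more (906 cells) 8.12 and those with at least 3 more (840 cells) 12.6. For Fmo2 the levels in the same order were 3.98, 1.39, 0.404 and 0.225, and for Cp 4.51, 1.92, 1.04 and 0.848. Postn stood at 3.98 in fibroblasts with equal counts and at 6.12 in those just inside the rule. Lypd6 stood at 0.157 in fibroblasts with equal counts and at 0.673, 0.780 and 0.519 in those with 1, 2 and at least 3 more list A genes, and Pak7 at 0.202, 0.784, 0.934 and 0.545. Both stood higher at each of the 3 margins inside the rule than with equal counts.

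The 3075 fibroblasts were also clustered on genes outside the rule, which gave 6 clusters. Most list B fibroblasts (282, or 93.1%) fell in 1 cluster of 764 cells, with 255 list A fibroblasts (10.5%). The list A fibroblasts in that cluster had 3.72 of Fmo2 and 3.98 of Cp, against 0.207 and 0.853 in the other list A fibroblasts. List B fibroblasts had 6.68 and 5.90. These levels are sums over the 255 cells and do not show how many of them carried the transcripts. The other 5 clusters were mostly list A fibroblasts. Clusters and the genes that lead them come from the same cells, so these are descriptions.

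The largest of the others held 1144 list A fibroblasts (47.2%) and was led by Pak7 (1.46), Lypd6 (1.24), Myoc (myocilin, 0.979) and Kcnab1 (4.21). Prg4 stood at 13.0 there, Fmod at 0.0592 and Fbn1 at 2.74. A cluster of 645 list A fibroblasts (26.6%), with no list B fibroblast, was led by Sphkap, Pex5l, Bbox1, Fibin (2.49) and Ccdc3 (3.0). It had the most Prg4 (28.2), Fmod (0.770), Pamr1 (3.07) and Fbn1 (6.85), along with 24.0 of Rin2 and 17.2 of Kcnq5. Adamtsl2 stood at 1.94 there, against 0.499 in the other list A fibroblasts. Prg4 with Fmod described this cluster more closely than the whole population. Even so, after thinning only 12.3% of its list A fibroblasts had a Fmod UMI, against 84.5% with a Prg4 UMI. The cells of this cluster were 28.2% of list A fibroblasts in the first barcode run and 8.72% in the second. Prg4 stood at 18.0 and 6.88 in list A fibroblasts of the first and the second run. A cluster of 314 list A fibroblasts (13.0%) was led by Dclk1 (7.63), Itih5, a hyaluronan-associated inhibitor heavy chain (5.37), Postn (14.3) and the nuclear receptor Esrrg (3.02), and had the highest Erbb4 (88.7).

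Both remaining clusters were small. One of 23 list A fibroblasts, all in the first barcode run, was led by interferon-response genes. One of 41 list A fibroblasts was led by genes that Egfl7 cells have, such as Ccm2l (0.763), and its list A fibroblasts had a median of 10087 UMIs. It was left unnamed. Without the first of these clusters Ifi203 was 15 times lower in list A than in list B fibroblasts, and Mndal 8.70 times. Ifi207, Ifi211 and Ifi204 were 9.81, 9.98 and 4.95 times lower without it, and Ifi205 59.3 times (29.5 to 135), on 9 UMIs in list A fibroblasts, against 25.9 times with it.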

How the data were processed

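The labels name 3 mitral valve libraries of mgR mice (Chromium single-cell 3' v3). Per the labels' processing notes, the submitters used Cell Ranger 7.1.0 and the mm10 build. The deposited matrix holds natural log values that the authors made from counts: ln(1 + UMIs per 10000 UMIs of the cell). The number of UMIs was recovered from each cell's lowest value above 0, which is 1 UMI: 100% of the values above 0 and 100% of the cell totals were whole within 0.02. One of the 3265 listed genes lacked values for some cells and was not used. The barcodes name no sample, so the matrix was treated as 1 sample and no test was run.

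Levels are summed UMIs per 10000 with 95% exact Poisson intervals, shares have exact binomial (Clopper-Pearson) intervals and ratios the exact conditional binomial interval. All cover counting error only. Genes were compared where the higher group had at least 0.2 UMIs per 10000, with the 15 rule genes left out, and called at a ratio of 2. Named genes were, in each comparison, the 15 highest and 12 lowest by the bound of the ratio nearest to 1, among genes with at least 0.5 UMIs per 10000 and a name that is not a Gm or Rik number, with up to 4 genes of each list by ratio, and Fbn1. A few further genes (Ifi205, Ifi207, Ifi211, Ifi204, Celf2, Fn1, Igfbp5, Bcan, Matn4 and other list members, and genes leading a cluster) were chosen after their values were seen, as was the motif. The members, the gene lists and the tests were chosen with earlier results of these data known.

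Fibroblasts were clustered with scanpy 1.11.5 (1000 variable genes without the rule genes, 30 principal components, 15 neighbours, Leiden resolution 0.5). Gene positions are from GENCODE M21 (GRCm38, the mm10 build), matched by symbol for 3244 genes. Promoters are from RefSeq on GRCm38.p6. The steps were tested on simulated cells over 3264 genes with 200 genes changed between list A and list B fibroblasts: 44% of genes changed by exactly 2 times and 100% of those changed by 4 times were called, 95% of the intervals held the simulated ratio, and 0 of 1083 unchanged genes were called. The simulated cells varied by counting error alone around 1 profile per group, and their ratios were taken by the simulated group. The simulation therefore cannot show how the rule or differences among cells of a group affect the calls and intervals. Alternatives to the rule, depth, filters, ratios and barcode runs were computed. Some genes are not reported here.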

Additional observations from a re-analysis of the deposited data

How the results depend on the processing

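Of 101 alternative shares and counts, 72 stayed within the counting interval or within 1.5 times of the reported value and 29 moved. The share of list A fibroblasts (14.8%) became 15.6% in cells of at least 2000 UMIs, 8.34% with the rule applied after thinning, 10.7% with at least 2 more list A than list B genes, 5.93% with all 3 fibroblast genes, 13.5% without Prg4 and 10.7% without Erbb4 in list A, 15.7% in the first and 9.02% in the second barcode run alone, and 13.6% without cells with Fcgr1 or Mlph. The 61 genes higher and 71 lower than in list B fibroblasts became 99 higher at the wider margin between lists, and 135 and 118 in the second barcode run. The second-run counts rest on 38 list B fibroblasts and are not shares of the same tested genes. With a ratio of 1.5 they were 123 and 136, with 3 they were 35 and 32, with no filter on low levels 233 and 434, and with a level of at least 0.5 they were 33 and 47. The 171 genes higher and 190 lower than in all other cells became 275 higher at a ratio of 1.5, 92 and 124 at 3, 500 and 539 with no filter, and 107 and 119 at a level of at least 0.5. The share of list A fibroblasts in the cluster with most list B fibroblasts (10.5%) was 8.38% at Leiden resolution 0.2 and 7.18% at 1.0. The cause of these moves was not tested, except that each filter and ratio admits more or fewer genes by its construction. Of 391 single-gene alternatives 98 moved and none changed direction, with 19 more left out for 3 or fewer UMIs in a group. They covered the 15 higher and 12 lower genes ranked against list B fibroblasts and the shares of cells with a list A gene. Pappa2, with a ratio of 0.853 in the second barcode run, was not among them.

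Leaving out the 2 small clusters, filtering on the mean of both groups and leaving out barcodes found in both runs were chosen after seeing the data. No paired analysis was possible because no barcode tells which numbered sample a cell came from, and for the same reason leaving out each replicate was not run. Depth limits the list B side most, since its cells are far fewer.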

Other observations

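Some transcripts named only by a Gm or Rik number were among the called genes: 4 of the 61 genes higher and 10 of the 71 lower than in list B fibroblasts, and 13 of the 171 higher and 8 of the 190 lower than in all other cells. They are counted above and not described.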
